A study of Caenorhabditis elegans with 9 samples.

Results

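The 39 genes described here encode the contractile apparatus of Caenorhabditis elegans body wall muscle, and they were measured in intestines dissected from worms grown at 3 heme doses. They were taken by gene name from a list of body wall muscle genes, because body wall may be carried over when a gut is cut out of a worm. All 39 were found among the 21776 genes of the table and all 39 passed the filter on low counts. By role the list holds 6 thick filament genes, 3 genes of giant sarcomere proteins, 14 thin filament genes, 12 attachment genes, 3 calcium handling genes and 1 transcription factor.

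The worms were adults of the wild-type strain N2, started as synchronised first-stage larvae and kept for 4 days at 20 °C in the liquid mCeHR2 medium. The groups were 2 µM heme, 20 µM heme and 400 µM heme, with 3 libraries each and 9 in all. Worms cannot make heme and take it from the medium. Each library was made by SMART-seq, a method that amplifies full-length cDNA from little RNA, from the pooled guts of 3 worms, so that no value belongs to a single animal. Separate cultures behind the replicates of a dose are not stated in the labels, and p-values therefore measure only the spread between these libraries. In such bulk samples fewer cells of a type and less RNA per cell cannot be told apart.

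In body wall muscle, thick filaments of myosin wound on a paramyosin core slide along thin filaments of actin, tropomyosin and troponin, after calcium released from the sarcoplasmic reticulum binds troponin C. Giant proteins of the titin family and the M-line protein UNC-89 hold the sarcomere in register, and dense bodies and M-lines tie it through integrins to perlecan in the basement membrane. An intestinal cell has none of these sarcomeres. Several of the proteins on the list, among them actins, cofilin, integrin and the calcium pump of the endoplasmic reticulum, are also used outside muscle.

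The libraries hold between 44385011 and 72960600 counts, and ribosomal RNA took between 2.30 and 42.0% of them. Markers of the labelled tissue were present, with all 13 measured intestine genes detected in each library. Together these genes took 4.12, 15.5 and 15.9% of counts with 2 µM heme, 17.7, 2.88 and 20.0% with 20 µM, and 10.2, 20.5 and 19.4% with 400 µM, in the order of replicates 1, 2 and 3 that is used for all values. The yolk protein gene vit-2, the most abundant of them, stood at 457 CPM in 20 µM replicate 2 and at 14332 to 220596 CPM in the other 8 libraries. CPM are counts scaled to the library size, with TMM factors applied. These factors ranged from 0.599 in 20 µM replicate 1 to 1.25 in 400 µM replicate 1, with 0.719 in 20 µM replicate 3. The order of libraries for a gene can therefore differ from that without them. Replicates 2 and 3 of 2 µM heme were near-identical, with a Pearson r of 0.995 over 10274 genes. Other replicate pairs had an r of 0.709 to 0.945. Replicates 2 and 3 of 2 µM still differed by more than sampling noise, with a chi-square per degree of freedom of 11.3. It was at least 361 for the other pairs. Counts of amplified cDNA can exceed sampling noise in any case, so this does not show whether these 2 libraries are separate samples. They were kept as separate libraries, with their sum as an alternative. In 20 µM replicate 2 the intestine share was the lowest and that of pharynx and neuron markers the highest of the 9, and ribosomal RNA took 35.3%.

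Transcripts of all roles except the transcription factor were detected in all 9 libraries, at low and very uneven levels. The 39 genes together took 0.590, 0.0468 and 0.0459% of all counts with 2 µM heme, 0.176, 0.0919 and 0.0311% with 20 µM, and 0.574, 0.165 and 0.125% with 400 µM. The highest library of each dose was replicate 1, and the 3 doses overlapped. As means the shares were 0.228 ± 0.314% at 2 µM, 0.0995 ± 0.0725% at 20 µM and 0.288 ± 0.248% at 400 µM (SD, n = 3 libraries each). Within 2 µM heme the highest library lay 12.9-fold above the lowest, within 20 µM 5.64-fold and within 400 µM 4.58-fold. The 95% Wilson interval of a share reached at most 0.00186 percentage points to each side and covers counting error only, so the spread between libraries was far larger than the counting error. With ribosomal RNA left out of the denominator the shares were 0.612, 0.0545 and 0.0538% with 2 µM heme, 0.180, 0.142 and 0.0537% with 20 µM, and 0.613, 0.178 and 0.141% with 400 µM.

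**Figure D1:**
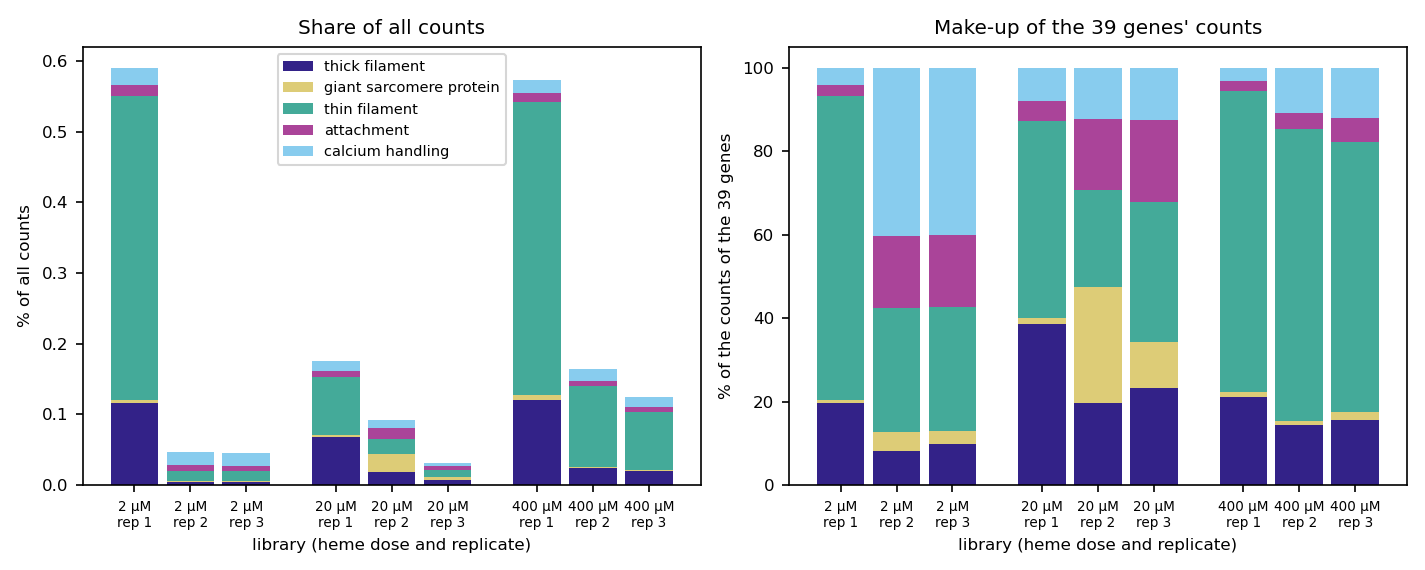
Left, share of all counts in percent taken by the 39 body wall muscle genes in each of the 9 libraries, stacked by role. Right, the same counts scaled to 100% per library. Replicate 1 stands highest at each dose (0.590, 0.176 and 0.574%), and calcium handling genes make up 40.4 and 40.1% of the bar in 2 µM replicates 2 and 3. The transcription factor, at most 0.0332%, is left out.

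The make-up of these counts differed between libraries as well as their sum. Thin filament genes made up 72.9% of the 39 genes' counts in 2 µM replicate 1 and between 64.7 and 72.3% in the 400 µM libraries. They made up 29.8 and 29.7% in 2 µM replicates 2 and 3, and 47.1, 23.4 and 33.6% at 20 µM. In 2 µM replicates 2 and 3 the calcium handling genes, mostly sca-1, came to 40.4 and 40.1% of the muscle counts, against 3.22 to 12.5% in the other 7 libraries. Giant protein genes made up 27.6% in 20 µM replicate 2, and between 0.766 and 10.9% in the other 8 libraries. The member with the highest CPM was accordingly not the same everywhere. It was the troponin C gene pat-10 in 2 µM replicate 1 and in all 3 libraries at 400 µM, sca-1 in 2 µM replicates 2 and 3, and mlc-3, unc-89 and unc-27 in 20 µM replicates 1, 2 and 3.

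Per length of transcript, as the authors' FPKM give it, the most abundant members over the 9 libraries were pat-10 at a mean of 923 FPKM, the calponin family gene cpn-3 at 396, the essential myosin light chain gene mlc-3 at 384, the actin gene act-4 at 191 and the regulatory light chain gene mlc-2 at 96.7. Their medians over the libraries were lower, at 347, 132, 125, 29.3 and 84.4 FPKM in that order. By median act-4 lay below act-1, at 65.2 FPKM. The lowest were hlh-1 at 0.111 FPKM and the calcium channel gene egl-19 at 0.0656 FPKM. The long transcripts of the giant proteins ranked near the bottom, with unc-89 at 0.798, unc-22 at 0.518 and ttn-1 at 0.377 FPKM. The 2 body wall myosin heavy chain genes, whose products share the same filaments, kept unc-54 above myo-3 in every library, by 3.57- to 17.1-fold in FPKM.

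Replicate 1 was the highest library of its dose for 38 of 39 members at 2 µM heme, for 22 at 20 µM and for 35 at 400 µM. Among all genes with at least 1 CPM in any library of that dose, replicate 1 was highest for 50.2, 39.5 and 38.8%. At 2 µM the median of the 38 members with a defined ratio stood 6.86-fold above the larger of the other 2 libraries, against 0.835-fold for all genes. At 400 µM the median was 2.56-fold, against 0.800-fold for all genes, and at 20 µM it was 1.46-fold, against 0.527-fold. The 3 libraries numbered 1 were the 3 highest of all 9 for 13 of 39 members, or 33.3%, and for 5.38% of the 10274 genes with a mean of at least 1 CPM. The 2 near-identical 2 µM libraries both lay below all others for 10 members, or 25.6%, and for 4.32% of genes. The labels do not state that a number marks a shared day or batch.

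**Figure D2:**
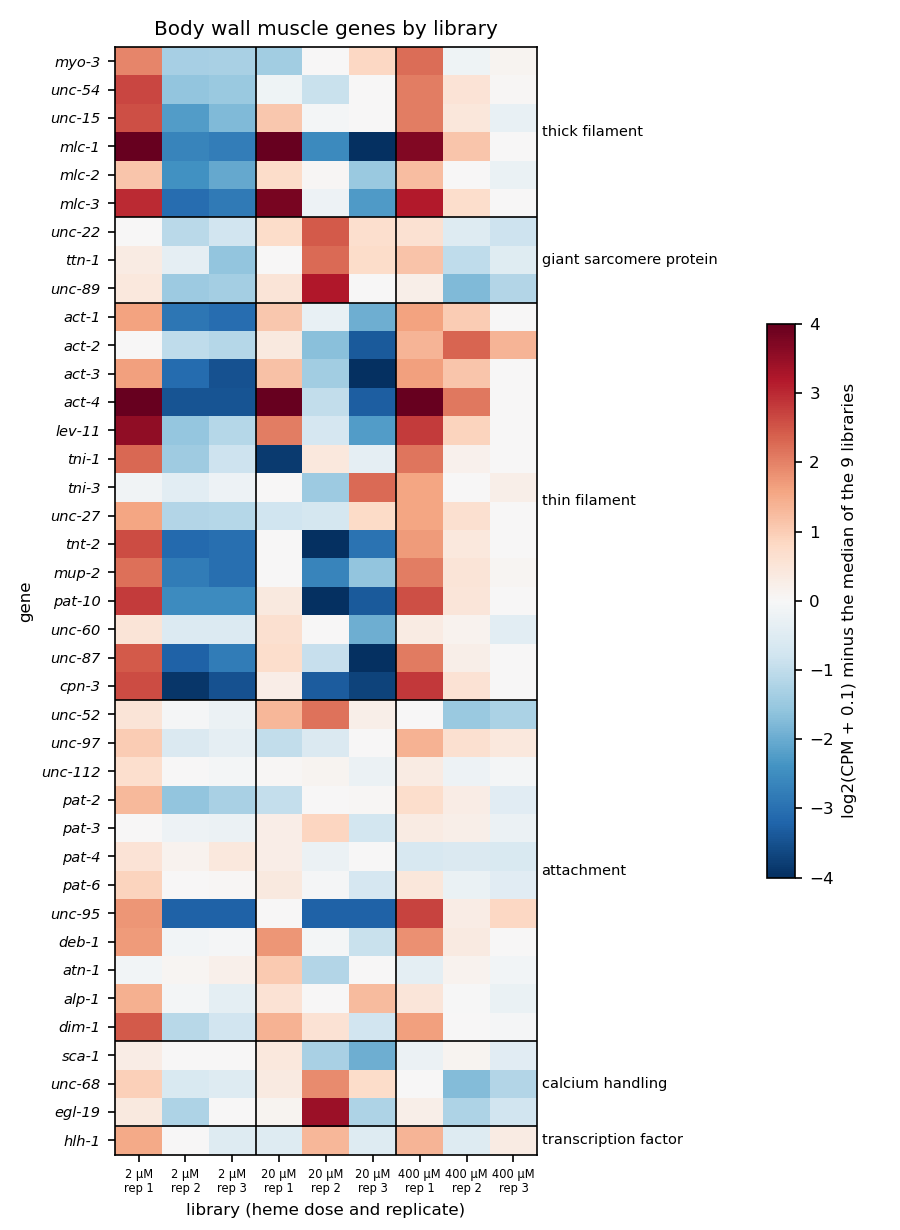
Level of each of the 39 genes in each library as log2(CPM + 0.1) minus the gene's median over the 9 libraries. Rows are grouped by role and columns by heme dose, low to high. Colours end at 4 on either side, and larger values have the end colour. Replicate 1 of 2 µM and of 400 µM heme is red for most genes, while unc-22, ttn-1 and unc-89 are darkest red in 20 µM replicate 2.

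Thick filament genes had their highest values in the libraries numbered 1. The heavy chain gene myo-3 (chromosome V, 12226816 to 12234343, WBcel235), which encodes the myosin at the centre of the filament, had 15.4, 1.49 and 1.52 CPM at 2 µM, 1.43, 3.92 and 7.08 CPM at 20 µM, and 18.8, 3.501 and 4.20 CPM at 400 µM. Its high libraries were 2 µM replicate 1 and 400 µM replicate 1, and each dose overlapped the others. The major heavy chain gene unc-54 (chromosome I, 14855901 to 14863482) had 166, 8.70 and 9.26 CPM at 2 µM, 23.2, 14.004 and 25.9 CPM at 20 µM, and 108, 37.97 and 26.6 CPM at 400 µM. All 400 µM libraries lay above all 20 µM libraries, whereas the 2 µM libraries lay on both sides of both other doses. The paramyosin gene unc-15 (chromosome I, 7376604 to 7383197) had 234, 8.35 and 11.6 CPM at 2 µM, 82.9, 37.5 and 39.5 CPM at 20 µM, and 165, 54.3 and 32.1 CPM at 400 µM. For unc-15 replicate 1 was the highest library at every dose, and 2 µM replicates 2 and 3 were the lowest of all 9.

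Among thick filament genes the light chain genes mlc-1 and mlc-3 spread most widely. The essential light chain gene mlc-3 had 453, 6.80 and 7.82 CPM at 2 µM, 790.0, 49.5 and 11.8 CPM at 20 µM, and 510.5, 91.6 and 56.6 CPM at 400 µM. Again replicate 1 was highest at each dose, and the doses overlapped. Of the regulatory light chain genes, mlc-1 had 68.3, 0.579 and 0.523 CPM at 2 µM, 155, 0.628 and 0.0627 CPM at 20 µM, and 54.9, 9.06 and 4.12 CPM at 400 µM, with both extremes at 20 µM. The range of mlc-2 was narrower, between 8.57 CPM in 2 µM replicate 2 and 109.8 CPM in 400 µM replicate 1. The genes mlc-1 and mlc-2 are neighbours on chromosome X with near-identical sequence, so reads may not have been separated between them, and each overlaps an exon of a protein-coding gene on the other strand.

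The giant sarcomere proteins showed another pattern, with 20 µM replicate 2 as the highest of the 9 libraries for all 3 genes. The twitchin gene unc-22 (chromosome IV, 11972697 to 12011007), which encodes a titin-like kinase, had 7.83, 3.69 and 4.52 CPM at 2 µM, 12.99, 43.2 and 12.4 CPM at 20 µM, and 11.9, 5.504 and 4.39 CPM at 400 µM. In CPM every 20 µM library lay above every library of both other doses, which overlapped each other. By FPKM, which carry no TMM factors, the doses overlapped. There 20 µM replicate 1 stood at 0.33, below 2 µM replicate 1 at 0.37 and 400 µM replicate 1 at 0.63. The titin-like gene ttn-1 (chromosome V, 6120909 to 6202632) had 17.96, 10.97 and 4.74 CPM at 2 µM, 14.2, 68.6 and 23.7 CPM at 20 µM, and 31.7, 7.04 and 10.2 CPM at 400 µM. The obscurin-like gene unc-89 (chromosome I, 4035702 to 4090885) had 14.9, 3.99 and 4.25 CPM at 2 µM, 15.9, 103 and 11.2 CPM at 20 µM, and 13.1, 3.23 and 4.95 CPM at 400 µM. Both genes overlapped between all doses, and outside 20 µM replicate 2 unc-89 did not pass 15.9 CPM. In FPKM the ratio of unc-89 to unc-54 was 1.77 in that library and 0.0203 to 0.167 in the other 8. The same library held 0.132% of its counts in the 14 pharynx genes, all of which were detected there, against 0.00153 to 0.0227% in the other 8. The part of pharynx in these values was not tested.

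Among thin filament genes pat-10 (chromosome I, 5018783 to 5020086) was the most abundant. It had 1558, 39.2 and 39.2 CPM at 2 µM, 298, 9.43 and 21.9 CPM at 20 µM, and 1363, 313 and 226 CPM at 400 µM. Replicate 1 was again the highest at each dose, and 20 µM replicate 1 kept the 20 µM and 400 µM ranges overlapping. The actin gene act-4 (chromosome X, 4960621 to 4964413) had 884, 2.69 and 2.66 CPM at 2 µM, 496, 15.3 and 3.01 CPM at 20 µM, and 498, 132 and 30.2 CPM at 400 µM. Its replicate 1 at 2 µM was 328-fold above the larger of the other 2 libraries, the widest such gap of any member at that dose.

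The actin gene act-2 was the only member to peak in 400 µM replicate 2. It lies with act-1 and act-3 in a cluster on chromosome V between 11071690 and 11082415, and had 43.1, 21.3 and 19.5 CPM at 2 µM, 55.96, 13.6 and 4.07 CPM at 20 µM, and 111, 217 and 111 CPM at 400 µM. All 400 µM libraries lay above all libraries of both other doses. In FPKM, act-2 over act-1 ranged from 0.212 in 2 µM replicate 1 to 2.44 in 2 µM replicate 3, and act-4 over act-1 from 0.172 in 20 µM replicate 3 to 4.29 in 2 µM replicate 1. The 4 actin genes are near-identical in their coding sequence, so these ratios depend on how reads that match several genes were assigned, which the sources used here do not give.

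Of the 14 thin filament genes, 11 had their highest CPM in 2 µM replicate 1 or 400 µM replicate 1, and act-2, tni-3 and unc-60 did not. The tropomyosin gene lev-11 had 206, 5.89 and 7.81 CPM at 2 µM, 72.5, 10.8 and 3.603 CPM at 20 µM, and 122.3, 32.0 and 17.4 CPM at 400 µM, with its 3 highest values in the libraries numbered 1. For cpn-3 those libraries had 509.8, 100.2 and 602 CPM, with 125 CPM in 400 µM replicate 2. The troponin T gene tnt-2, whose product binds tropomyosin, had 61.0, 1.06 and 1.11 CPM at 2 µM, 9.81, 0.290 and 1.19 CPM at 20 µM, and 32.1, 13.03 and 9.84 CPM at 400 µM. All 400 µM libraries of tnt-2 lay above all 20 µM libraries. The other troponin T gene among the members, mup-2, peaked at 53.98 CPM in 2 µM replicate 1. Of the troponin I genes, which encode the inhibitory subunit, unc-27 ranged from 11.8 to 79.9 CPM and tni-1 from 0 counts in 20 µM replicate 1 to 6.79 CPM in 2 µM replicate 1. The troponin I gene tni-3 peaked instead at 31.2 CPM in 20 µM replicate 3. By FPKM it stood at 26.6 there and was highest in 400 µM replicate 1, at 29.3. The ADF/cofilin gene unc-60, which also has a non-muscle product, stayed between 5.42 and 33.4 CPM with its maximum in 20 µM replicate 1. By FPKM its maximum was 33.4 in 2 µM replicate 1, against 19.8 in 20 µM replicate 1. Its exons overlap those of F53E2.2 on the same strand. The actin bundling gene unc-87 reached 51.05 CPM in 2 µM replicate 1. The actin genes act-1 and act-3 reached 203 CPM in 2 µM replicate 1 and 174 CPM in 400 µM replicate 1.

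**Figure D3:**
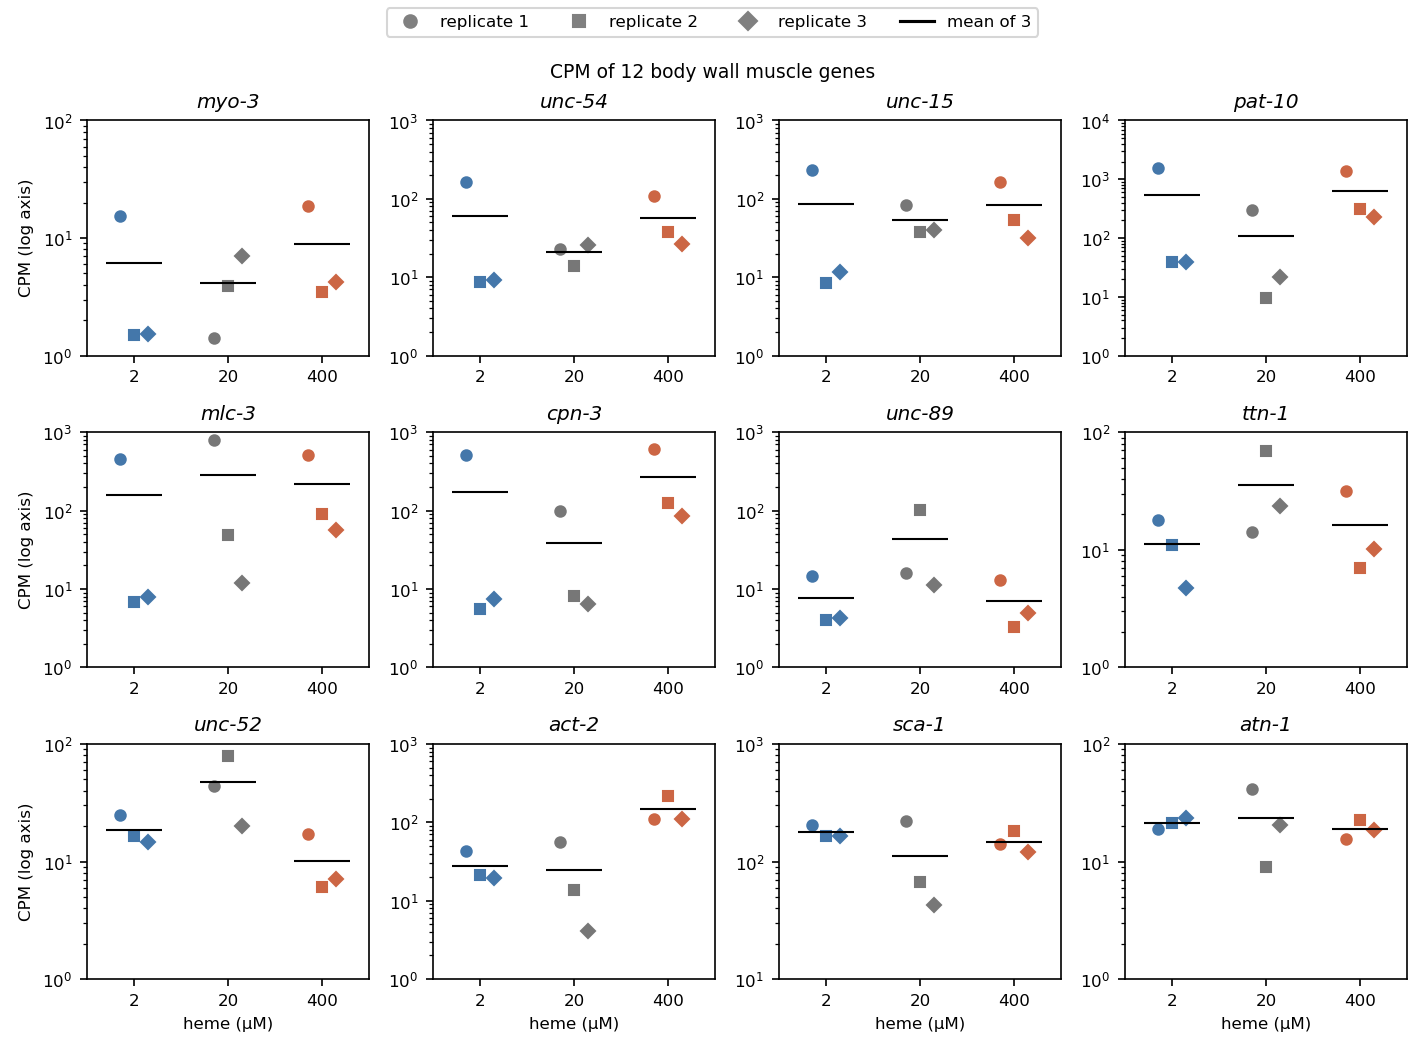
CPM on a log axis against heme dose for 12 of the 39 genes, with a symbol per replicate number and a bar at the mean of the 3 libraries. For myo-3, unc-54, unc-15, pat-10, mlc-3 and cpn-3 the replicate 1 circle is the highest point at 2 and 400 µM. For unc-89 and ttn-1 the highest point is the square of 20 µM replicate 2, act-2 is highest at 400 µM, and sca-1 and atn-1 vary least at 2 and 400 µM.

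No attachment gene passed 78.2 CPM in any library. The perlecan gene unc-52 (chromosome II, 14647321 to 14684456), which encodes the basement membrane anchor of the sarcomere, had 24.9, 16.5 and 14.7 CPM at 2 µM, 43.5, 78.2 and 20.1 CPM at 20 µM, and 17.2, 6.08 and 7.17 CPM at 400 µM. All 20 µM libraries lay above all 400 µM libraries, and the 2 µM libraries overlapped both. The alpha-actinin gene atn-1, a dense body component, had 18.99, 21.4 and 23.4 CPM at 2 µM, 41.7, 8.91 and 20.3 CPM at 20 µM, and 15.5, 22.5 and 18.6 CPM at 400 µM. It was the only member with its 2 µM maximum outside replicate 1, and both extremes of its 9 CPM values lay at 20 µM. By FPKM its maximum was 8.31 in 2 µM replicate 3, with 8.27 in 20 µM replicate 1. The integrin-linked kinase gene pat-4 had 9.74, 7.35 and 8.89 CPM at 2 µM, 8.05, 5.62 and 6.67 CPM at 20 µM, and 4.20, 4.46 and 4.37 CPM at 400 µM. In CPM all 400 µM libraries lay below all libraries of both other doses, which overlapped. By FPKM they lay below those at 2 µM only, with 3.17 in 20 µM replicate 3 and 3.51 in 400 µM replicate 1.

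The remaining 9 attachment genes fell into even and uneven ones. The kindlin gene unc-112 stayed between 4.95 and 9.45 CPM, the beta integrin gene pat-3 between 2.95 and 9.201 CPM and the parvin gene pat-6 between 1.85 and 5.65 CPM. Over all members, 6 had a highest library under 2-fold above their median, namely sca-1, pat-4, unc-60, unc-112, pat-3 and pat-6. This is 15.4% of members, against 36.5% of the 10020 genes whose mean was at least 1 CPM and whose median was above 0. The alpha integrin gene pat-2 was less even, from 0.362 to 3.26 CPM, as were the PINCH gene unc-97, from 0.790 to 4.50 CPM, the vinculin gene deb-1, from 0.877 to 6.22 CPM, and the immunoglobulin-domain gene dim-1, from 2.33 to 28.3 CPM. The LIM-domain genes alp-1 and unc-95 reached 24.5 CPM in 2 µM replicate 1 and 5.996 CPM in 400 µM replicate 1. Of unc-95, 4 libraries held 0 counts, replicates 2 and 3 of both 2 and 20 µM.

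Of the calcium handling genes, sca-1 (chromosome III, 10811906 to 10816844) encodes the SERCA pump that refills the reticulum. It had 205, 166 and 165 CPM at 2 µM, 223, 67.0 and 42.9 CPM at 20 µM, and 141, 180.3 and 121 CPM at 400 µM. Its highest library was 1.35-fold above its median, the smallest such ratio of all 39 members. That library was 5.21-fold above its lowest, with both extremes at 20 µM, whereas for unc-112 this ratio was 1.91. By FPKM the highest library of sca-1 was 2 µM replicate 1 at 66.6, against 39.2 in 20 µM replicate 1. The ryanodine receptor gene unc-68, the release channel of the reticulum, had 13.1, 4.40 and 4.72 CPM at 2 µM, 8.63, 25.4 and 11.3 CPM at 20 µM, and 6.73, 1.95 and 2.91 CPM at 400 µM. In CPM all 20 µM libraries lay above all 400 µM libraries. By FPKM 20 µM replicate 1, at 0.31, lay below 400 µM replicate 1, at 0.50. The L-type calcium channel gene egl-19 stood at 2.43 CPM in 20 µM replicate 2 and at most 0.209 CPM elsewhere, with 0 counts in 3 libraries.

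The transcription factor gene hlh-1, the worm's homologue of MyoD, was at the limit of detection. It had 0.308, 0.0434 and 0 CPM at 2 µM, 0, 0.258 and 0 CPM at 20 µM, and 0.267, 0 and 0.0783 CPM at 400 µM. In 4 libraries it had 0 counts. A floor set at 3 counts corresponds to 0.0369 to 0.0940 CPM, depending on the library, and levels under it rest on fewer than 3 counts.

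The first comparison asks whether muscle transcripts in the gut preparation differ between heme-poor medium and the middle dose. Of the 39 members, 0 were called for 2 against 20 µM heme by edgeR's quasi-likelihood test with Benjamini-Hochberg adjustment over 13434 genes at 0.05, where 0.0744% of all genes were called. An unadjusted p under 0.05 was reached by 2 members, against 13.4% of all genes. DESeq2 called 1 member, where it called 6.89% of genes, and limma-voom 0, where it called 1.88%. DESeq2 gave no adjusted p to 5 of the 39 members and to 913 of the 13434 genes, which it therefore could not call. The member called by DESeq2, unc-22, averaged 5.35 ± 2.19 CPM at 2 µM and 22.9 ± 17.6 CPM at 20 µM, a log2 fold change of −2.10 (SE 0.65, edgeR adjusted p = 0.234, DESeq2 adjusted p = 0.0316). In CPM it was also the only member whose 3 libraries at 2 µM all lay below those at 20 µM, and for 4.46% of genes they did. By FPKM its libraries at these doses overlapped. No member had all 3 above in CPM, against 12.7% of genes.

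Next by p in that comparison, unc-89 averaged 7.70 ± 6.20 CPM at 2 µM and 43.2 ± 51.4 CPM at 20 µM, a log2 fold change of −2.49 (SE 1.004, edgeR adjusted p = 0.342), and unc-52 averaged 18.7 ± 5.43 and 47.3 ± 29.2 CPM (−1.34, SE 0.60, edgeR adjusted p = 0.380). Neither passed. The exons of unc-22 overlap those of the protein-coding gene ZK617.26 on the same strand. All 3 of these genes were highest in 20 µM replicate 2, and leaving it out gave log2 fold changes of −1.32 for unc-22, −0.89 for unc-89 and −0.81 for unc-52. The filament genes myo-3, unc-54 and unc-15 had log2 fold changes of 0.57 (SE 1.08), 1.54 (SE 1.11) and 0.67 (SE 1.20), none of which passed. Without 2 µM replicate 1 these were −1.46, −1.22 and −2.41.

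Fold changes for 2 against 20 µM heme were split by role. Their median was 0.35 over the 39 members, with 25 above 0, and 0.12 over all genes tested, with 54.4% above 0. By role it was 0.17 for thick filament, −2.10 for giant protein, 1.06 for thin filament, 0.31 for attachment and −1.03 for calcium handling genes. The positive median over the members rests on 2 µM replicate 1. Without it the members' median was −1.59 with 5 of 39 above 0, and that of all genes was −0.12. For pat-10 the log2 fold change was 2.31, and −1.47 without 2 µM replicate 1. For act-4 it was 0.79, and −5.98 without that library.

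**Figure D4:**
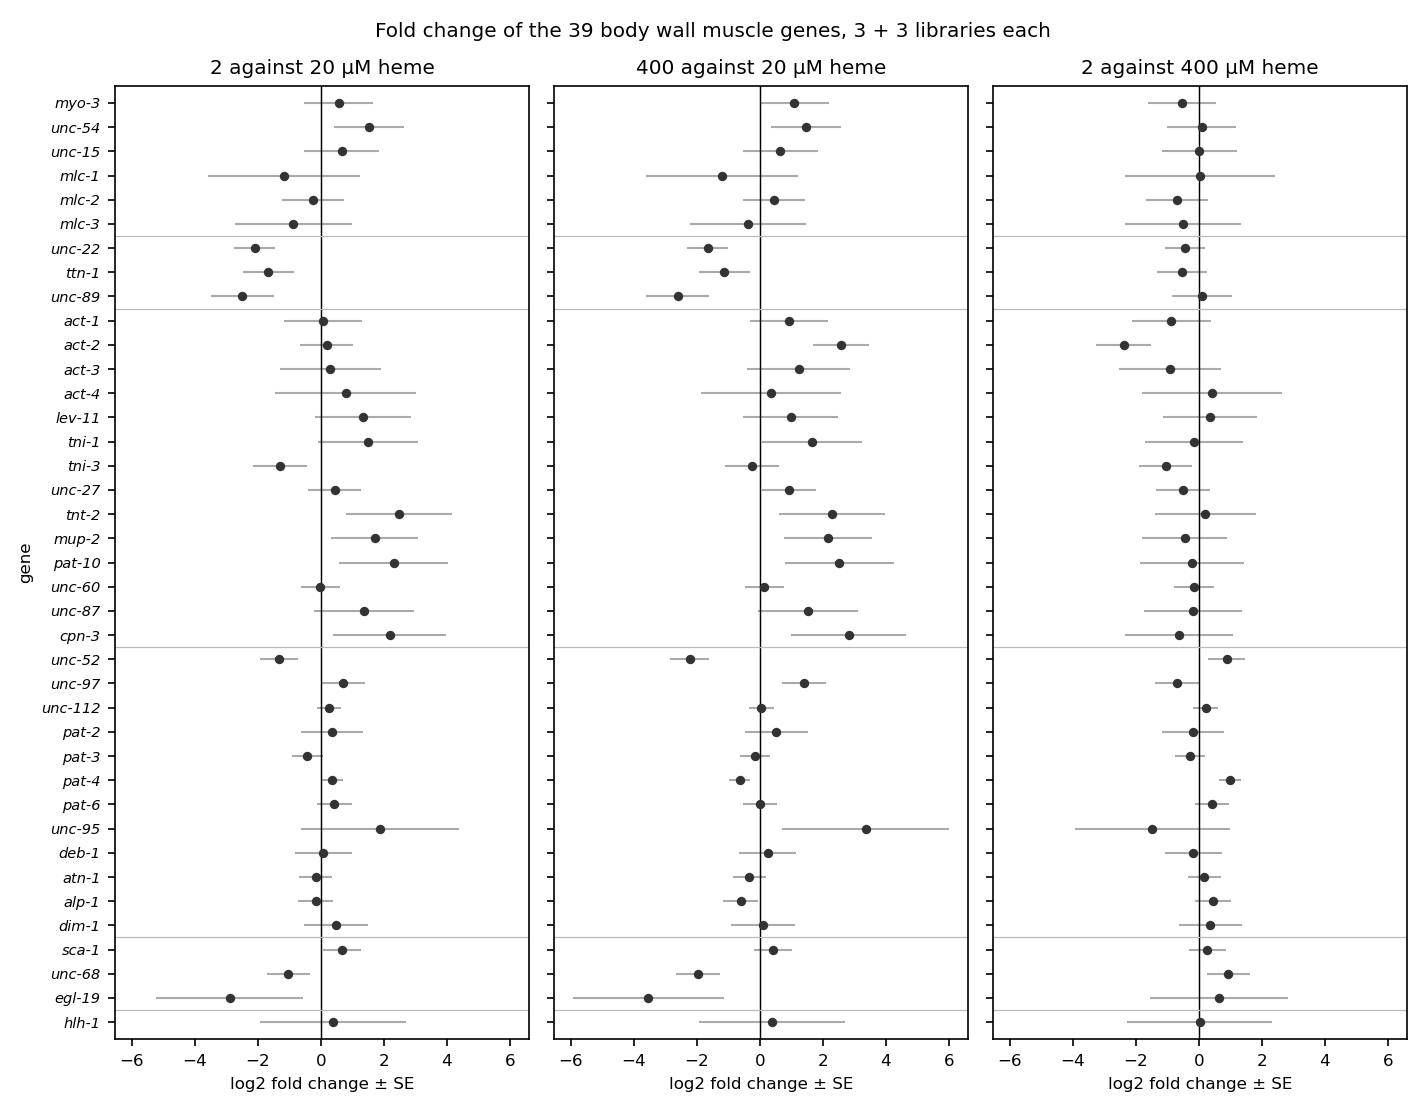
Log2 fold change ± SE of the 39 genes from edgeR for 2 against 20 µM, 400 against 20 µM and 2 against 400 µM heme, 3 libraries per dose, on one scale, with lines between roles. None of the 39 genes passed adjustment over all genes in any panel. The 3 giant protein genes lie below 0 in the first 2 panels, while pat-10, tnt-2, mup-2 and cpn-3 lie above 0 with wide errors.

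For 400 against 20 µM heme, which share the 20 µM libraries with the comparison above, edgeR called 0 of 39 members, where it called 0.551% of all genes. An unadjusted p under 0.05 was reached by 5 members, or 12.8%, against 18.5% of genes. DESeq2 gave no adjusted p to 5 of the 39 members. It called 1 member, where it called 12.3% of genes, and limma-voom called 0 members and 0.0% of genes. That member, unc-52, averaged 10.1 ± 6.13 CPM at 400 µM and 47.3 ± 29.2 CPM at 20 µM, a log2 fold change of −2.22 (SE 0.62, edgeR adjusted p = 0.137, DESeq2 adjusted p = 0.0135). Its exons overlap those of the gene hhat-1 on the other strand, and the strand of counting is not stated. Without 20 µM replicate 2, its highest library, its log2 fold change was −1.60.

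Next by p were act-2 and unc-68. The actin gene act-2 averaged 146 ± 61.4 CPM at 400 µM and 24.5 ± 27.6 CPM at 20 µM, a log2 fold change of 2.58 (SE 0.88, edgeR adjusted p = 0.189), and DESeq2 gave it no adjusted p. Without 20 µM replicate 1 its log2 fold change was 4.06 and it was called by edgeR (adjusted p = 0.0328), the only member called in any fit that left out a library. The ryanodine receptor gene unc-68 averaged 3.86 ± 2.53 CPM at 400 µM and 15.1 ± 8.99 CPM at 20 µM, a log2 fold change of −1.97 (SE 0.69, edgeR adjusted p = 0.197). Without 20 µM replicate 2 it was −1.34. The other 2 members with an unadjusted p under 0.05 were unc-89 and unc-22, with log2 fold changes of −2.60 and −1.65, and −0.89 and −0.78 without 20 µM replicate 2.

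In CPM, libraries of 400 and 20 µM heme did not overlap for 10 members. The 6 that lay higher at 400 µM were act-2, unc-97, mup-2, tnt-2, unc-54 and unc-95, or 15.4%, where 16.7% of all genes did so. The 4 that lay lower were unc-52, unc-68, unc-22 and pat-4, or 10.3%, where 7.44% of genes did so. Both shares are near those of all genes. By FPKM, without TMM factors, the 6 still lay apart. Each of the 4 overlapped, with a 20 µM library below 400 µM replicate 1. The median log2 fold change of the members was 0.38, with 26 of 39 above 0, and −0.03 over all genes. By role it was 0.56 for thick filament, −1.65 for giant protein, 1.39 for thin filament, 0.03 for attachment and −1.97 for calcium handling genes. Without 20 µM replicate 1 the members' median was 1.03 and that of all genes 0.32. Without 400 µM replicate 1 the members' median was −0.16, against −0.04 over all genes.

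For 2 against 400 µM heme edgeR again called 0 of 39 members, where it called 0.104% of genes, and 2 members had an unadjusted p under 0.05, against 10.6% of genes. DESeq2 called 0 members, where it called 4.33% of genes. The kinase gene pat-4 averaged 8.66 ± 1.21 CPM at 2 µM and 4.35 ± 0.129 CPM at 400 µM, a log2 fold change of 0.99 (SE 0.34, edgeR adjusted p = 0.382). In CPM it was the only member whose 2 µM libraries all lay above those at 400 µM, which 14.4% of genes showed. The libraries of act-2 and tni-3 all lay below in CPM, which 14.1% of genes showed. By FPKM those of tni-3 overlapped, with 7.75 in 2 µM replicate 1 and 7.56 in 400 µM replicate 2. For act-2 the means were 28.0 ± 13.1 CPM at 2 µM and 146 ± 61.4 CPM at 400 µM, a log2 fold change of −2.39 (SE 0.88, edgeR adjusted p = 0.412), and for unc-52, next by p, they were 18.7 ± 5.43 and 10.1 ± 6.13 CPM (0.88, SE 0.60, edgeR adjusted p = 0.694).

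In the same comparison limma-voom with sample weights called 22 of 39 members, 20 lower and 2 higher at 2 µM, where it called 27.3% of all genes. It gave 2 µM replicates 2 and 3, the near-identical pair, weights of 6.69 and 6.34, and the other 7 libraries between 0.275 for 2 µM replicate 1 and 1.46. The part of these weights in the calls was not tested. In edgeR the median log2 fold change over the members was −0.16, with 18 of 39 above 0 and 0.02 over all genes, and without 2 µM replicate 1 it was −2.07, against −0.29 over all genes.

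Across doses, the mean CPM was highest at 2 µM for 11 members, at 20 µM for 12 and at 400 µM for 16. The SD exceeded the mean for 21 members at 2 µM, for 15 at 20 µM and for 6 at 400 µM. The highest of the 9 libraries was 4.82-fold above the median library for the median member, and 2.47-fold for the median of those 10020 genes.

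A further 39 genes of body wall muscle that are no members, such as channels, receptors and assembly factors, served as a second list, of which 38 were measured and 35 tested. Their sum had another order of libraries than that of the contractile genes. It was 0.0308, 0.0241 and 0.0230% of counts with 2 µM heme, 0.0393, 0.0530 and 0.0150% with 20 µM, and 0.0341, 0.0170 and 0.0180% with 400 µM. By share of counts the highest was 20 µM replicate 2. In TMM-scaled CPM it was 20 µM replicate 1, at 657 CPM against 448 CPM in replicate 2, with the larger part of the 657 CPM from the gene tnt-3. By share, 2 µM replicate 1 stood 1.27-fold above replicate 2, whereas for the 39 contractile and attachment genes this ratio was 12.6. EdgeR called 0 of the 35 in each comparison. In the order 2 against 20, 400 against 20 and 2 against 400 µM, an unadjusted p under 0.05 was reached by 4, 4 and 2 of them, against 13.4, 18.5 and 10.6% of all genes. DESeq2 called 3, 4 and 0 of the 35, where it called 6.89, 12.3 and 4.33% of all genes, and limma-voom 2, 0 and 12, where it called 1.88, 0.0 and 27.3%. The median log2 fold changes were −0.39, −0.16 and −0.33 in the same order.

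The most abundant of these genes, the troponin T gene tnt-3, had 5.30, 4.76 and 5.497 CPM at 2 µM, 402, 94.6 and 20.8 CPM at 20 µM, and 58.5, 2.27 and 1.89 CPM at 400 µM. Its log2 fold change for 2 against 20 µM was −5.06 (SE 1.59, edgeR adjusted p = 0.239). All 2 µM libraries lay below all 20 µM libraries. The formin gene fhod-1 averaged 6.04 ± 1.61 CPM at 400 µM and 28.3 ± 14.3 CPM at 20 µM, a log2 fold change of −2.23 (SE 0.64, edgeR adjusted p = 0.145). The LIM-domain gene lim-8 averaged 2.13 ± 0.224 and 10.8 ± 5.71 CPM at the same doses (−2.34, SE 0.55, edgeR adjusted p = 0.0951). The guanine exchange factor gene unc-73 averaged 5.10 ± 1.70 CPM at 2 µM and 13.7 ± 6.11 CPM at 20 µM (−1.43, SE 0.45, edgeR adjusted p = 0.237), with 5.13 ± 0.624 CPM at 400 µM (−1.42 against 20 µM, edgeR adjusted p = 0.166).

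The potassium channel gene twk-18 had 0 counts at 20 µM. At 2 µM it had 1.55, 0 and 0 CPM, so that any difference from 20 µM rests on replicate 1 (edgeR adjusted p = 0.368). At 400 µM it had 1.32, 0.271 and 0.418 CPM, at least 9.19-fold higher as a mean than a floor of 3 counts in each 20 µM library (edgeR adjusted p = 0.257). The LIM-domain gene lim-9 averaged 1.76 ± 0.377 CPM at 2 µM and 4.52 ± 2.13 CPM at 20 µM (edgeR adjusted p = 0.355). For 2 against 400 µM the smallest p belonged to fhod-1 (22.7 ± 13.6 and 6.04 ± 1.61 CPM), lim-8 (5.48 ± 2.37 and 2.13 ± 0.224 CPM), the myosin chaperone gene unc-45 (2.61 ± 0.462 and 1.35 ± 0.592 CPM) and tnt-3, with edgeR adjusted p = 0.371, 0.434, 0.688 and 0.705.

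Markers of other tissues were high in some of the same libraries, and their part in the results was not tested. The 18 hypodermis and cuticle genes, led by the adult collagen gene col-19, took 0.708, 0.0135 and 0.0135% of counts with 2 µM heme, 0.0219, 0.0352 and 0.0123% with 20 µM, and 0.0806, 0.0287 and 0.0217% with 400 µM. As for muscle, 2 µM replicate 1 and 400 µM replicate 1 were the highest libraries, and of the 18 genes 18, 14 and 10 were detected with 2 µM heme, 17, 15 and 10 with 20 µM, and 14, 12 and 15 with 400 µM. The gene col-19 itself stood at 807 CPM in 2 µM replicate 1 and 596 CPM in 400 µM replicate 1, and at 12.1 to 238 CPM in the other 7 libraries. The whole list summed to 6360 CPM in 2 µM replicate 1 and 647 CPM in 400 µM replicate 1. Other genes of the list thus made up most of the former sum, and col-19 most of the latter.

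Pharynx and neuron genes were highest in 20 µM replicate 2. The pharynx list took 0.00158, 0.00186 and 0.00168% with 2 µM heme, 0.0227, 0.132 and 0.00644% with 20 µM, and 0.00939, 0.00178 and 0.00153% with 400 µM. Of its 14 genes, 7, 8 and 7 were detected with 2 µM heme, 13, 14 and 9 with 20 µM, and 12, 8 and 10 with 400 µM, with the pharyngeal gene abu-14 at 421 CPM in 20 µM replicate 2 and at most 1.02 CPM elsewhere. The 13 neuron genes, with the peptide processing gene egl-21 as the most abundant, took 0.0439% in 20 µM replicate 2 and 0.00289 to 0.0150% in the other 8 libraries. In the same library the intestine list was at its lowest.

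Germ line genes were highest at 400 µM. The 11 oocyte and germ line genes, led by the eggshell gene perm-2, took 0.155, 0.287 and 0.0928% of counts at 400 µM and at most 0.0196% in the other 6 libraries, and at least 10 of them were detected in each library. The 12 sperm genes, led by msp-59, took 0.0469 to 0.0498% at 2 µM, 0.00244 to 0.00524% at 20 µM and 0.0514 to 0.530% at 400 µM. Genes of the gonadal sheath, a contractile tissue that shares muscle genes, took 0.000267 to 0.000603% at 2 µM, 3.66e-05 to 0.000317% at 20 µM and 0.00119 to 0.00400% at 400 µM, with inx-8 as the most abundant of 4. The 400 µM libraries are those in which act-2 was high, and the part of gonad in that level was not tested. The 3 measured genes of enteric and sex muscle took at most 0.000206% in any library, and egl-15 was the most abundant. The 11 genes of the basement membrane, led by nid-1, took 0.00588 to 0.0380%, and the 2 coelomocyte genes, led by cup-4, at most 0.00130%.

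**Figure D5:**
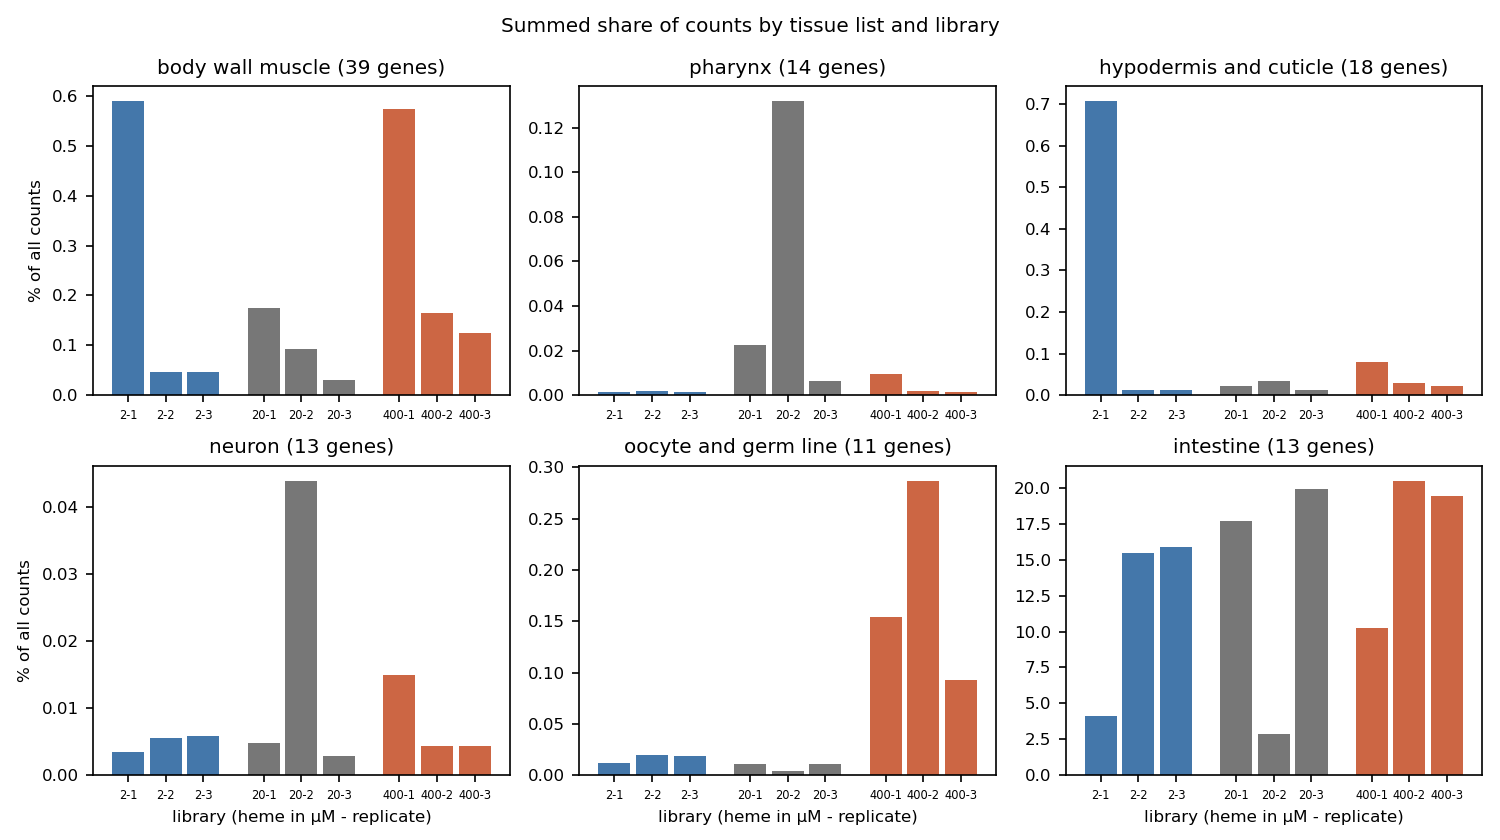
Summed share of all counts in percent for the 39 body wall muscle genes and 5 lists of other tissues in each library, coloured by heme dose, each panel on its own axis from 0. Hypodermis and cuticle genes are highest in 2 µM replicate 1 (0.708%), pharynx and neuron genes in 20 µM replicate 2 (0.132 and 0.0439%), oocyte and germ line genes at 400 µM, and intestine genes are lowest in 20 µM replicate 2 and 2 µM replicate 1 (2.88 and 4.12%).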

How the data were processed

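The deposited table holds whole-number counts per gene for each of the 9 libraries, per the file headers, beside FPKM values that the authors computed. Bowtie 0.12.2 was used with the build WBcel235, per the submitters' processing notes, and gene coordinates are those of that build. How reads were assigned to genes and strands, and what was done with reads matching several genes, is not given in the sources used here. The 39 names were all matched. FPKM served to compare levels between genes and, for some members, to give the order of libraries without TMM factors. The length implied by counts and FPKM was within 10% of the gene's median for 100% of 70842 values.

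Counts of all 9 libraries were scaled by TMM, filtered with filterByExpr (13434 genes kept) and fitted with edgeR 4.0.16 in R 4.3.3 with 1 coefficient per heme dose. The quasi-likelihood test was adjusted by Benjamini-Hochberg over all genes tested, and genes under 0.05 were called. The 3 pairwise comparisons share libraries. The biological coefficient of variation was 0.961. DESeq2 1.42.0 and limma 3.58.1 (voom with sample weights) were alternatives, as were other size factors, filters, sample sets, a replicate block, removal of ribosomal RNA genes, a sum of the near-identical 2 µM libraries and leaving out each library. The scripts were tested on simulated data. Shares carry 95% Wilson intervals, which cover counting error only. Libraries hold 44385011 to 72960600 counts.

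All 39 genes are accounted for. Values in every library are given for myo-3, unc-54, unc-15 and hlh-1, the 2 genes per role with the highest mean CPM, genes called by edgeR (none), and the 3 with the smallest p per comparison. Of the second muscle list, up to 4 genes with the smallest p per comparison are named, and of the lists of other tissues the sum and the most abundant gene. Genes outside this rule are given by ranges, and those singled out, such as cpn-3, lev-11, mlc-1 and tnt-2, were chosen after their values were seen. The gene list, the other lists and the tests were chosen with earlier results of these data known.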

Additional observations from a re-analysis of the deposited data

How the results depend on the processing

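Of the member counts, 1 passed with DESeq2 for 2 against 20 µM and 1 for 400 against 20 µM, and 22 with limma-voom for 2 against 400 µM, where edgeR had 0 each time. Leaving out each library gave 0 in every fit for 2 against 20 µM and 2 against 400 µM, and between 0 and 1 for 400 against 20 µM. The members' median log2 fold change ranged from −1.59 to 0.72, from −0.16 to 1.03 and from −2.07 to 0.58 over these fits, in the order 2 against 20, 400 against 20 and 2 against 400 µM, and was −1.13 and −1.62 with limma-voom in the first and last. With limma-voom 6 members turned lower for 2 against 400 µM and were called: unc-54 (−2.07), unc-15 (−2.37), mlc-1 (−3.88), act-4 (−4.90), lev-11 (−2.15) and tnt-2 (−3.52). The cause was not tested. Uncalled values of single members changed sign under some alternative for 29, 16 and 25 of the 39.

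Over all genes the edgeR counts were 10, 74 and 14, with 926, 1654 and 582 by DESeq2 and 253, 0 and 3670 by limma-voom. Without a filter they were 18, 147 and 29, with at least 10 CPM in 3 libraries 26, 42 and 60, and with only the compared doses 0, 0 and 284. With the 2 µM pair summed they were 0 each. Leaving out each library gave 0 to 210, 0 to 953 and 0 to 54.

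With a replicate block, 0 members passed in each comparison, the members' medians were −0.11, 0.53 and −0.79, where they were 0.35, 0.38 and −0.16 without it, and 2, 0 and 4 of all genes were called. Same-numbered libraries of different doses correlated between −0.0343 and 0.416 in their deviations from the dose means, with 6 of 9 pairs over 0.1, against 3 of 18 pairs with different numbers. The latter include 2 µM replicate 2 with 20 µM replicate 3 (0.297) and with 400 µM replicate 3 (0.285). That 2 µM library is near-identical to 2 µM replicate 3. All 3 pairs numbered 1 and all 3 numbered 3 were over 0.1 and none of the 3 numbered 2 was, and 6 of 9 libraries correlated best with their own number. As not every pair passed 0.1 and the labels name no shared batch, the samples were not treated as paired, and a partial link between the numbers cannot be set aside.

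The members tni-1, unc-95, egl-19 and hlh-1 had 0 counts in 1 or more libraries, and the part of depth in this was not tested. With 3 libraries per dose and an SD above the mean for many members, fold changes smaller than this spread could not be resolved, and 11 members have an exon that overlaps one of another protein-coding gene, for 2 of them (unc-22 and unc-60) on the same strand.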
